A study of Mus musculus with 15 samples.

Results

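The genes described here encode the proteins of the cytosolic ribosome, read in bulk RNA sequencing of mouse brain cortex. They were taken from the count table by name: symbols that start with Rpl or Rps, go on with a number and end there or in a, x, l or l1, together with Rplp0, Rplp1, Rplp2 and Rpsa. This gave 86 of the 53278 gene rows, and 81 of them passed the count filter that left 18369 genes for testing. The 5 that did not pass were Rpl10l and Rps12l1, with 0 counts in all libraries, and Rpl32l, Rpl39l and Rpl6l, with 17, 19 and 32 counts over all 15 libraries. The name also takes up copies that are not part of the ribosome's usual set: the annotation lists 4 rows (Rps4l, Rps12l1, Rpl6l and Rpl32l) as processed pseudogenes, and some core proteins carry names that the rule does not match, of which 4 (Rps3a1, Fau, Rack1 and Rpl36al) are given separately. The mice were C57BL/6J males aged 10 to 20 weeks, with 5 per group and 1 library per mouse. Control mice ate control food, depletion mice ate food with PLX3397 for 9 days, and repopulation mice ate PLX3397 food for 9 days followed by control food for 9 days. PLX3397 inhibits CSF1R, the receptor whose signal microglia need to survive, and the design asked how the cortex changes when these cells are lost and when they return. PLX3397 reaches the whole animal, so no group isolates microglia from other cells, and the labels do not say what share of cells each library holds.

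Each cytosolic ribosome joins a small subunit, which reads the mRNA, to a large subunit, which forms peptide bonds. Its proteins are needed in nearly equal numbers, so their genes are known to be expressed together, and neurons draw on them for protein synthesis in the soma, dendrites and axons. Their mRNAs are short and abundant and usually begin with a terminal oligopyrimidine (TOP) tract, a C followed by a run of C and T, through which the kinase mTORC1 and the protein Larp1 set their translation and stability.

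The tract can be seen at annotated starts of some of the members described below, but not of all. RefSeq (GRCm38.p6) held a start for 63 of the 86 members, and 35 of these (55.6%) had a C followed by at least 5 bases that were each C or T, beginning within 10 bases of the start on the gene's own strand. Over all 27025 genes in that table the share was 21.9%. The windows run from 10 bases before the start to 20 from it on, with the first such run in capitals. Where a gene had several annotated starts, a start with a run was chosen for its window.
Rps6 (chr4:86857348-86857377, minus strand): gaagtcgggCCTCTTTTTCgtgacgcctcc
Rps9 (chr7:3704031-3704060, plus strand): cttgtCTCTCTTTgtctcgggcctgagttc
Rps21 (chr2:180257369-180257398, plus strand): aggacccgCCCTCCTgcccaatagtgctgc
Rpl27a (chr7:109519185-109519214, plus strand): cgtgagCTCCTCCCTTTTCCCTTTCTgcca
Rpl28 (chr7:4792955-4792984, plus strand): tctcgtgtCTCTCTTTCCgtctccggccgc
Rpl38 (chr11:114668570-114668599, plus strand): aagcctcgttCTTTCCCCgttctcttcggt
Rplp2 (chr7:141447641-141447670, plus strand): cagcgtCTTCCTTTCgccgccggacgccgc
Rps4x and Rpl4 are shown for contrast, because their annotated starts had no such run. The same held for other members described below, among them Rplp0, Rpsa, Rps3, Rps15, Rpl5, Rpl10, Rpl11, Rpl37a and Rpl41.
Rps4x (chrX:102189372-102189401, minus strand): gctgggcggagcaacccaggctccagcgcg
Rpl4 (chr9:64173377-64173406, plus strand): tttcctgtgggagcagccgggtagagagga
The letters CCGGAAG, the core that ETS-type factors recognise, stood on either strand of the 300-base promoter in 25 of the 63 members (39.7%) and in 9.93% of all genes, and TATAAA in 8 (12.7%) and 15.7%. Among the 12570 tested genes that are not members, the shares were 17.0% for CCGGAAG, 9.24% for TATAAA and 23.5% for the C and T run. The 60 tested members with a start had 40.0%, 11.7% (7 genes) and 55.0% in the same order. The difference in TATAAA rests on few genes and was not tested. These are matches of letters around annotated starts, and an annotated start can differ from the start used in cortex. The 33 tested members with a run and the 27 without had median log2 fold changes of -0.38 and -0.42 in repopulation against control, -0.17 and -0.19 in depletion against control, and -0.21 and -0.22 in repopulation against depletion.

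Ribosomal protein mRNAs were lower in the cortex of PLX3397-fed mice than in controls, and lower still in mice whose microglia had returned. Summed over the members, the level was 6355, 5887, 6435, 5597 and 5681 CPM (counts scaled to the library size, with TMM factors) in the control libraries. It was 5254, 6064, 5134, 5147 and 4925 CPM in the depletion libraries, and 4423, 4805, 4483, 4502 and 4699 CPM in the repopulation libraries. Every repopulation library lay below every control and every depletion library, whereas depletion library 2 lay within the control range and the other depletion libraries below it. The group means were 5991 ± 384 CPM in control, 5305 ± 441 in depletion and 4583 ± 162 in repopulation (SD, n = 5 mice), and the members held 0.600 ± 0.040%, 0.526 ± 0.047% and 0.460 ± 0.016% of all counts. In bulk tissue, fewer cells of a type and less RNA per cell cannot be told apart, and CPM is a share of the library, not an amount per cell.

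**Figure D1:**
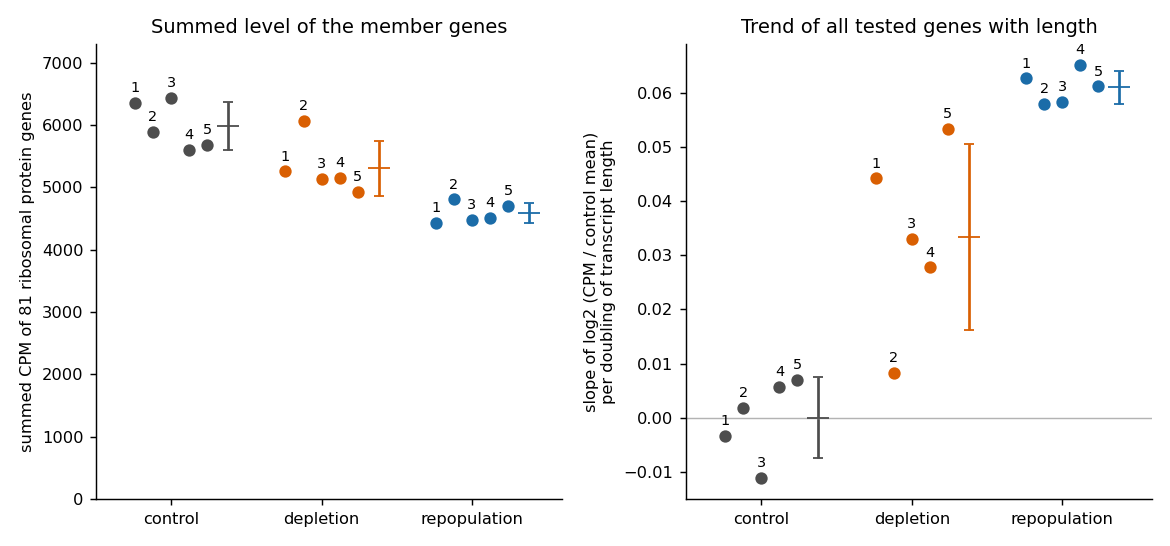
The left panel shows the summed CPM of the ribosomal protein genes in each library (points, with the mouse number) and the group mean with its SD (bar), and the right panel shows, for the same libraries, the slope of log2 (CPM over the control mean) of tested genes against log2 transcript length. Depletion library 2 sits within the control range on the left and just above it on the right, nearest to the controls of its group. The 5 repopulation libraries are lowest on the left and highest on the right.

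Tested gene by gene with edgeR's quasi-likelihood test and Benjamini-Hochberg adjustment over all 18369 genes, 78 of the 81 members fell in repopulation against control and 0 rose, where 15.2% of all genes tested fell and 13.9% rose. In none of the 3 comparisons was a member higher at an unadjusted p under 0.05 in edgeR, and DESeq2 also called 0 higher. The median log2 fold change of the members was -0.39, which is 76.1% of the control level, against 0.0074 for all genes tested. The changes were modest and alike from gene to gene: the called members ran from -0.65 to -0.21, the middle of the list from -0.45 to -0.34, and the median SE of a member was 0.062. In 76 members the 5 repopulation libraries all lay below the 5 control libraries, which held for 11.8% of all genes tested. Leaving out any single library gave 78 or 79 called members, with medians from -0.43 to -0.36.

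In depletion against control, 39 of 81 members fell and 0 rose, where 8.35% of all genes tested fell and 8.19% rose, and the members' median was -0.18 against -0.0019 for all genes. Only 2 members, Rpl29 and Rpl7l1, had no overlap between the depletion and control libraries, which held in this direction for 5.38% of all genes. In depletion library 2, 77 of 81 members were at or above the lowest control library, against 7 to 15 members in the other 4. Without that library 69 members fell, with a median of -0.25. The count was 20 without control library 1 or control library 3, 25 without depletion library 1 or 3, and 22 without depletion library 5, and it was 20 when the repopulation libraries were left out of the fit. The number of genes called thus moved with single libraries. Of the 81 members, 80 had a fold change below 0, against 9271 of the 18369 genes tested. The members were read in the same libraries, so their signs are not separate observations.

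In repopulation against depletion, 56 of 81 members fell and 0 rose, where 8.98% of all genes tested fell and 7.61% rose, with a median of -0.22 against 0.00084 for all genes. In 28 members the repopulation libraries all lay below the depletion libraries, which held for 6.24% of all genes. The count was 35 without depletion library 2 and 35 without repopulation library 3. By group means, 79 of the 81 members stood in the order control, depletion, repopulation from high to low. The exceptions were Rpl3l and Rps15a, the latter named after its values were seen. How many of all genes tested stood in that order was not counted. Depletion and repopulation were set against the same 5 control mice, and the same 5 depletion mice serve in 2 comparisons, so these 3 comparisons are not independent of each other.

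**Figure D2:**
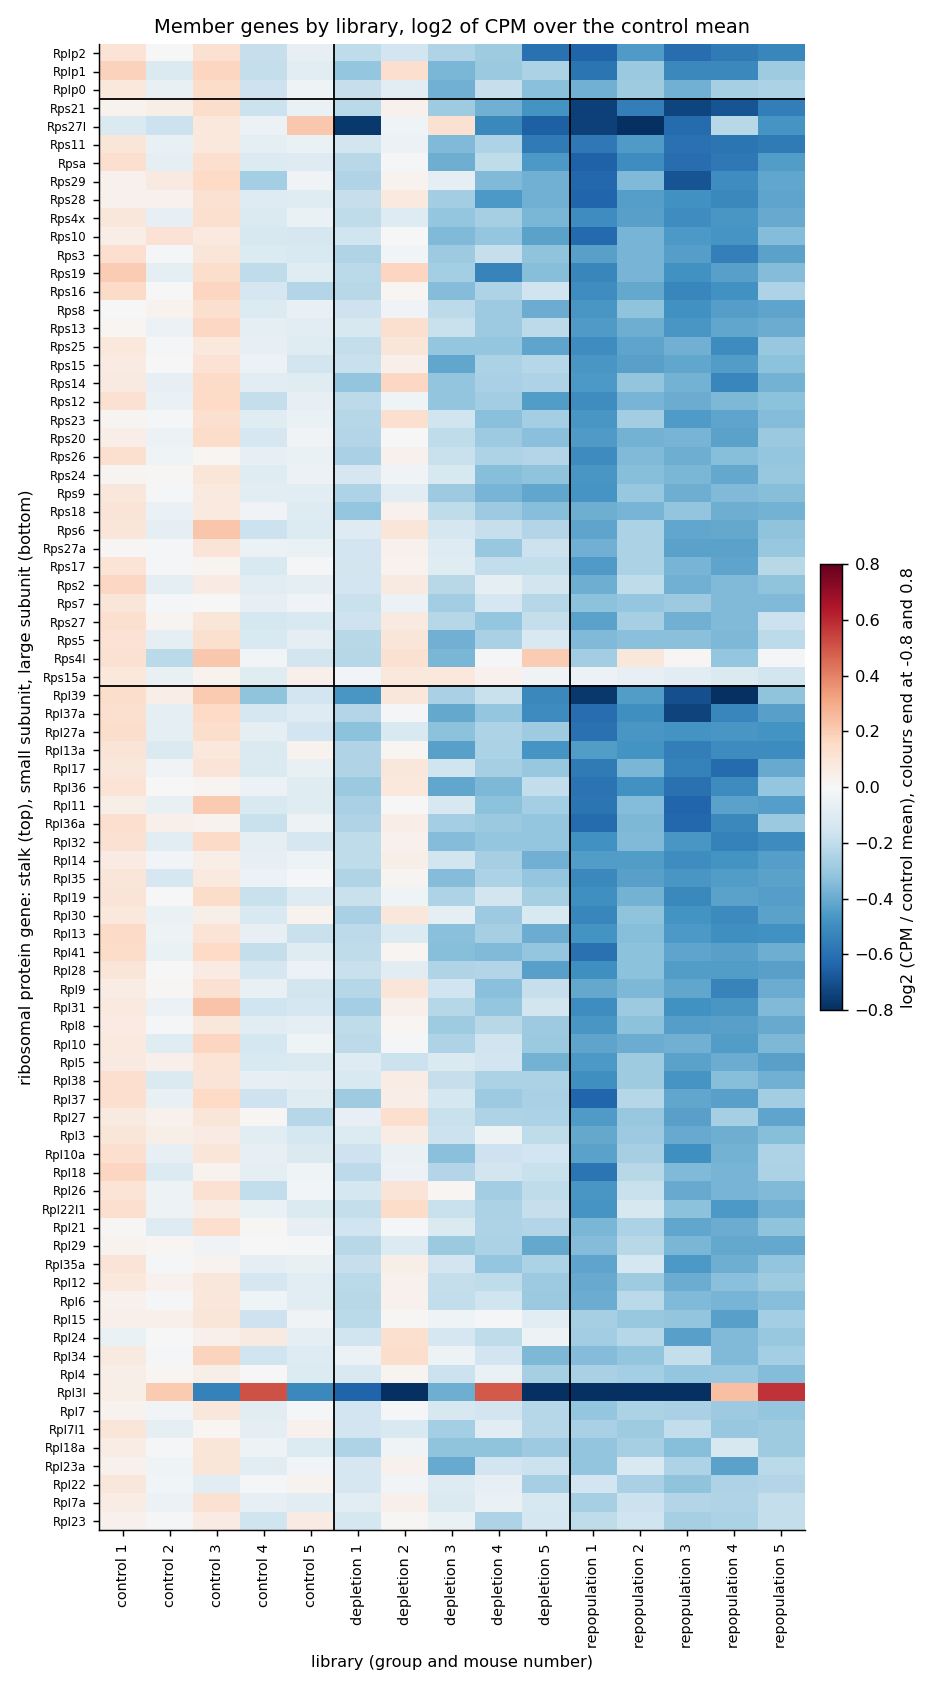
Each row is a tested ribosomal protein gene, from top to bottom the 3 stalk proteins, the 32 small subunit and the 46 large subunit genes, and each column is a library; the colour is log2 of CPM over the mean of the control libraries, blue for lower and red for higher. The repopulation columns are blue in nearly every row, depletion library 2 is close to the controls, and the rows of Rps4l, Rps15a and Rpl3l differ from the rest.

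The stalk is the arm of the large subunit that recruits the GTPase factors of translation, and all 3 of its genes fell in repopulation against control. Rplp0 (chr5:115559467-115563727, plus strand), the stalk's base, stood at 112, 101, 117, 93.9 and 103 CPM in the control libraries, 92.9, 99.0, 80.9, 92.6 and 83.6 in the depletion libraries and 80.6, 86.4, 80.9, 87.6 and 88.5 in the repopulation libraries. Its log2 fold change was -0.31 (SE 0.058, adjusted p = 0.000336) in repopulation against control, -0.23 (SE 0.058, adjusted p = 0.00843) in depletion against control, and -0.083 (SE 0.058, adjusted p = 0.384) in repopulation against depletion. For Rplp0 most of the distance lay between control and depletion, and the depletion and repopulation libraries overlapped. Rplp2 (chr7:141447370-141451585, plus strand), an acidic protein of the stalk's tip, stood at 66.2, 61.3, 66.8, 54.0 and 58.6 CPM in control, 53.3, 55.2, 51.8, 50.4 and 40.5 in depletion and 39.3, 44.8, 40.2, 41.5 and 42.8 in repopulation. It fell at each step, by 0.29 (adjusted p = 0.00843) on the log2 scale from control to depletion and by 0.27 (adjusted p = 0.0144) from there to repopulation. Rplp1, the other acidic stalk protein, was the member with the highest level per length in control, 296 ± 36.1 RPKM (CPM per kilobase of transcript; SD, n = 5). Its libraries stood at 168, 136, 167, 129.6 and 139 CPM in control, 119, 163, 115, 120.3 and 124 in depletion and 98.5, 120.2, 103, 103 and 121 in repopulation, and depletion library 2 was set apart from the other 4. Rplp1 fell only in repopulation against control, with -0.44 (SE 0.11, adjusted p = 0.00927), and this adjusted p rose to 0.0531 when trends of the libraries with transcript length and GC content were taken out.

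Among the 32 small subunit genes tested, 30 fell in repopulation against control (median -0.40), 16 in depletion against control (median -0.20) and 21 in repopulation against depletion (median -0.22). Rps4x (chrX:102184941-102189394, minus strand), an X-linked core gene, had the smallest adjusted p of any member in repopulation against control. Its CPM was 141, 126, 144, 122 and 127 in control, 115, 123, 106, 109.6 and 102 in depletion and 93.3, 97.5, 93.3, 95.5 and 99.9 in repopulation. Control and depletion libraries met only at depletion library 2, and no repopulation library reached any other group. On the log2 scale the change of Rps4x was -0.46 (SE 0.049, adjusted p = 1.18e-06) in repopulation against control, -0.25 (SE 0.049, adjusted p = 0.000927) in depletion against control and -0.21 (SE 0.049, adjusted p = 0.00336) in repopulation against depletion. Rps21 (chr2:180257377-180258445, plus strand) had the largest fall of the called members: 83.3, 84.4, 90.0, 72.5 and 78.9 CPM in control, 70.4, 83.8, 67.2, 62.7 and 58.8 in depletion and 48.7, 55.8, 49.2, 50.6 and 55.7 in repopulation. It stood at 63.6% of the control mean in repopulation, with a log2 fold change of -0.65 (SE 0.083, adjusted p = 3.17e-05) against control and -0.40 (SE 0.084, adjusted p = 0.00369) against depletion. The fall of Rps21 in depletion against control, -0.25 (SE 0.082, adjusted p = 0.0453), stood close to the threshold, as did that of Rps15 (0.0461) and Rpsa (0.0448), and these 3 calls were lost in most of the alternative fits.

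Rpsa (chr9:120127689-120132369, plus strand), which also serves as a laminin-binding protein at the cell surface, stood at 175, 151, 175, 148 and 149 CPM in control, 137, 158, 122, 139 and 116 in depletion and 102, 113, 105, 107 and 117 in repopulation. Its log2 fold change was -0.55 (SE 0.080, adjusted p = 0.000124) in repopulation against control. Rps9, which lines the channel through which mRNA enters, stood at 89.1, 82.9, 88.1, 78.5 and 78.9 CPM in control, 70.3, 78.6, 68.1, 64.6 and 62.5 in depletion and 60.2, 67.8, 63.7, 65.4 and 66.0 in repopulation. Like Rplp0 it fell in depletion against control, with -0.28 (SE 0.053, adjusted p = 0.000574), while its value in repopulation against depletion was -0.092 (SE 0.053, adjusted p = 0.268). Rps6, the small subunit protein that S6 kinases phosphorylate downstream of mTORC1, showed the other sequence of steps. Its libraries stood at 50.5, 44.7, 55.1, 41.9 and 43.7 CPM in control, 44.0, 50.5, 43.0, 41.6 and 40.1 in depletion and 35.2, 39.7, 35.3, 35.5 and 37.8 in repopulation. The value of Rps6 was -0.11 (SE 0.070, adjusted p = 0.327) in depletion against control, and it fell in repopulation against depletion with -0.26 (SE 0.071, adjusted p = 0.0164). Whether such genes differ from each other in their steps was not tested.

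Rps3, a protein of the mRNA entry site, fell in all 3 comparisons, with -0.21 (SE 0.055, adjusted p = 0.0112), -0.23 (SE 0.056, adjusted p = 0.00571) and -0.45 (SE 0.056, adjusted p = 7.18e-06) in the order depletion against control, repopulation against depletion, repopulation against control. Rps19, the gene most often affected in Diamond-Blackfan anaemia, stood at 52.1, 42.8, 49.8, 39.3 and 42.2 CPM in control, 39.0, 51.0, 37.5, 31.2 and 35.7 in depletion and 31.5, 35.0, 32.3, 33.5 and 35.5 in repopulation. It fell in repopulation against control with -0.43 (SE 0.11, adjusted p = 0.0103), and its adjusted p was 0.061 with the length and GC trends taken out. Rps15, the second member per length in control at 262 ± 18.5 RPKM, fell by 0.42 (adjusted p = 0.00015) on the log2 scale in repopulation against control. Rps27a, made as a fusion with ubiquitin, fell by 0.36 (adjusted p = 1.65e-05) in the same comparison. Its exon bases are shared with Clhc1 on the opposite strand, and without the use of strand in counting being given, the reads of such a pair cannot be told apart. In all, 15 members share exon bases with another protein-coding gene, Rpl5, Rpl15 and Rpl28 among those described here.

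Among the 46 large subunit genes tested, 45 fell in repopulation against control (median -0.39), 21 in depletion against control (median -0.17) and 34 in repopulation against depletion (median -0.22). Rpl27a (chr7:109519147-109522367, plus strand) stood at 76.2, 65.8, 76.5, 65.6 and 62.1 CPM in control, 55.2, 63.6, 55.3, 58.2 and 56.8 in depletion and 45.7, 50.2, 49.6, 50.2 and 49.6 in repopulation. It fell at each step, with -0.26 (SE 0.054, adjusted p = 0.00141) and -0.24 (SE 0.055, adjusted p = 0.00368), and by 0.50 in all (adjusted p = 1.2e-06). Its repopulation libraries lay below all others. Rpl29 (chr9:106429454-106431568, plus strand) had the smallest adjusted p of any member in depletion against control. It stood at 72.0, 71.5, 69.1, 70.7 and 69.7 CPM in control, 60.5, 65.5, 57.5, 59.2 and 53.2 in depletion and 55.4, 60.4, 54.9, 53.2 and 53.2 in repopulation, so that each depletion library, library 2 included, lay below each control library. The log2 fold change was -0.25 (SE 0.047, adjusted p = 0.000391) in depletion against control and -0.095 (SE 0.047, adjusted p = 0.187) in repopulation against depletion. Rpl30 and Rpl15 lay at the other end, with most of the distance at the second step. Rpl30 (chr15:34440505-34443640, minus strand) stood at 49.8, 45.2, 48.4, 43.1 and 47.8 CPM in control, 39.1, 50.0, 44.6, 38.3 and 43.1 in depletion and 32.6, 37.6, 33.7, 32.9 and 34.8 in repopulation, with -0.13 (SE 0.061, adjusted p = 0.169) at the first step and -0.33 (SE 0.062, adjusted p = 0.000636) at the second. The value of Rpl15 was -0.066 (SE 0.049, adjusted p = 0.405) at the first step, and it fell by 0.25 (adjusted p = 0.000782) at the second.

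Of the proteins at the ribosome's catalytic core and exit tunnel, Rpl3 and Rpl4 were the most abundant members described by CPM, and Rpl4 was the third per length at 215 ± 9.23 RPKM in control. Rpl4 (chr9:64173375-64178666, plus strand), which lines the tunnel, stood at 341, 334, 341, 329.7 and 306 CPM in control, 303, 335, 293, 318 and 275 in depletion and 276, 274, 267, 268 and 259.7 in repopulation. It fell by less than the median member, with -0.30 (SE 0.042, adjusted p = 1.11e-05) in repopulation against control, and its 5 repopulation libraries lay within a narrow range. Rpl3, a protein close to the peptidyl transferase centre, stood at 243, 234, 238, 214 and 206 CPM in control, 211, 237, 202, 221 and 198 in depletion and 171, 185, 172, 173 and 179 in repopulation. The value was -0.090 (SE 0.049, adjusted p = 0.227) in depletion against control, and it fell in repopulation against depletion with -0.28 (SE 0.049, adjusted p = 0.000344). Rpl39, another tunnel protein, had a larger fall and a wider spread: 15.2 ± 2.23 CPM in control, 12.8 ± 2.23 in depletion and 9.98 ± 1.56 in repopulation (SD, n = 5), with -0.61 (SE 0.13, adjusted p = 0.00171) in repopulation against control.

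Rpl5 and Rpl11 join 5S ribosomal RNA before assembly, and when assembly fails they bind Mdm2 and so release p53. Rpl5 fell in all 3 comparisons, from 76.4 ± 5.69 CPM in control to 67.4 ± 5.04 in depletion and 57.9 ± 2.77 in repopulation (SD, n = 5), with -0.40 (SE 0.053, adjusted p = 7.18e-06) in the last against control. Rpl11 stood at 60.2, 56.0, 67.3, 53.6 and 54.4 CPM in control, 48.6, 58.2, 53.3, 46.4 and 48.3 in depletion and 38.8, 45.8, 37.6, 43.3 and 43.0 in repopulation. It fell in repopulation against control with -0.48 (SE 0.071, adjusted p = 5.17e-05) and against depletion with -0.29 (SE 0.072, adjusted p = 0.00885), and its value in depletion against control was -0.19 (SE 0.071, adjusted p = 0.07). Rpl10, X-linked and among the last proteins to join the large subunit, fell in all 3, by 0.40 (adjusted p = 1.1e-05) in repopulation against control. Rpl38, known for its part in the translation of Hox mRNAs in the mouse embryo, stood at 42.1, 35.3, 41.1, 36.6 and 36.3 CPM in control, 35.3, 40.0, 33.7, 32.1 and 32.2 in depletion and 27.2, 31.5, 27.6, 30.3 and 29.3 in repopulation. It fell by 0.39 (adjusted p = 4.35e-05) against control and by 0.25 (adjusted p = 0.00791) against depletion. The 4 tested X-linked members, Rpl10, Rpl36a, Rpl39 and Rps4x, all fell in repopulation against control. Rpl41, whose protein is among the shortest known, fell by 0.44 (adjusted p = 0.000505) in repopulation against control, with -0.23 (SE 0.079, adjusted p = 0.0514) in depletion against control.

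Further large subunit genes followed the same order of groups. Rpl14 stood at 94.2 ± 3.68 CPM in control, 83.0 ± 9.46 in depletion and 68.4 ± 1.22 in repopulation, and Rpl19 at 91.8 ± 8.62, 81.5 ± 5.24 and 67.2 ± 2.55 (SD, n = 5), and both fell in all 3 comparisons. Rpl28 fell by 0.43 (adjusted p = 3.7e-06), Rpl37a by 0.56 (adjusted p = 0.00013) and Rpl17 by 0.50 (adjusted p = 4.62e-05) in repopulation against control. In depletion against control, the calls of Rpl10, Rpl14, Rpl19 and Rpl37a were each lost in 5 or 6 of the fits that left out 1 library. In repopulation against control, no named member's call was lost in such a fit.

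**Figure D3:**
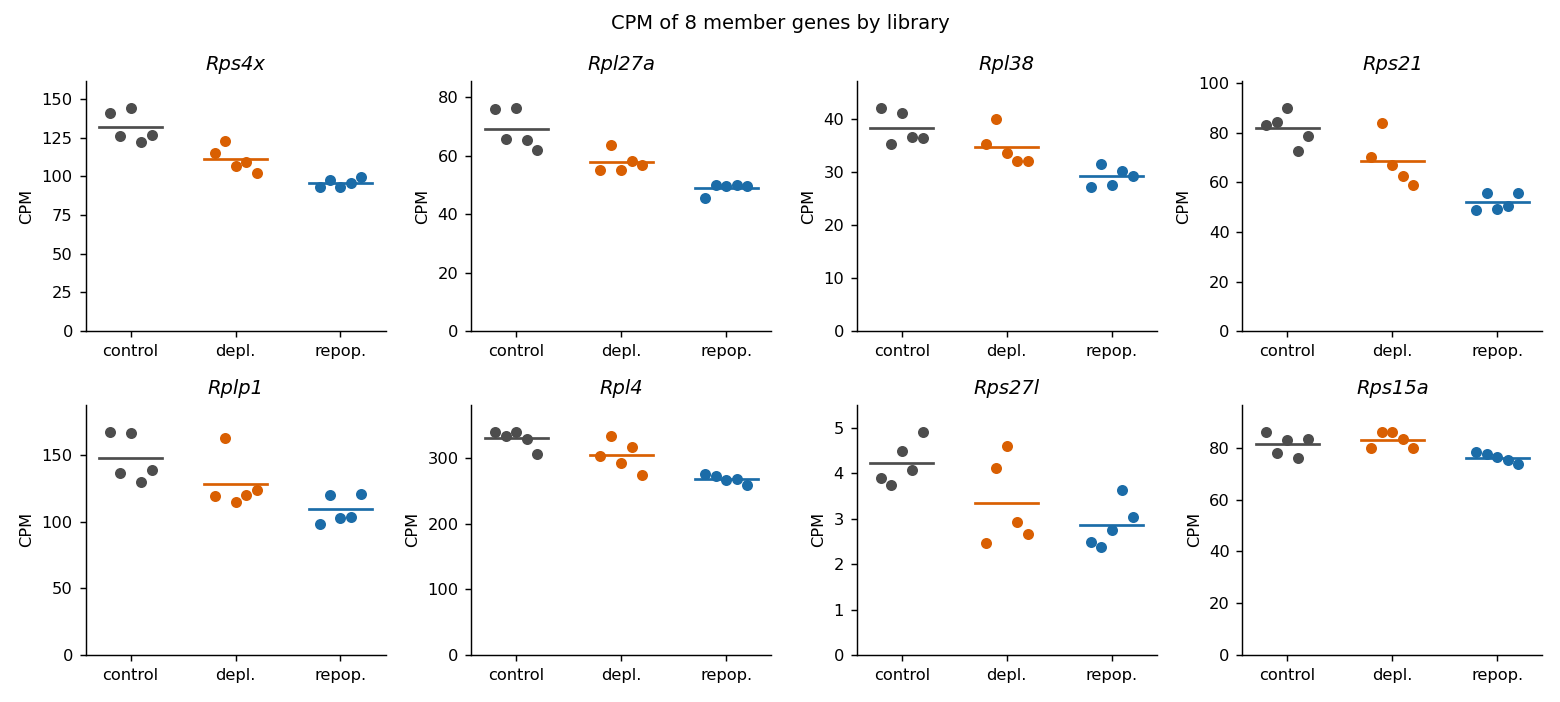
CPM of 8 members in each library (points), with the group mean (line), on axes that start at 0. Rps4x, Rpl27a and Rps21 step down from control to depletion and repopulation, Rplp1 shows depletion library 2 apart from its group, and Rps15a lies between 73.6 and 86.4 CPM in all libraries.

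The paralogs that the names take up were mostly scarce in cortex. Rpl10l and Rpl39l, known from the testis, gave 0 and 19 counts over all libraries and were not tested. Rpl3l, known from striated muscle, stood at 0 to 0.731 CPM, its value in repopulation against control was -0.29 (SE 0.47, adjusted p = 0.694), and no change could be seen at this depth. Rpl22l1, a close copy of Rpl22, stood at 24.7, 21.9, 23.5, 21.7 and 20.8 CPM in control, 19.7, 24.9, 19.9, 18.9 and 19.8 in depletion and 16.2, 20.6, 18.0, 16.3 and 17.3 in repopulation. It fell in repopulation against control with -0.35 (SE 0.075, adjusted p = 0.000901), and Rpl22 itself, which cells can do without, fell by 0.24 (adjusted p = 0.000275), among the smallest falls called. Rpl7l1, a copy of Rpl7 tied to assembly, fell by 0.17 (adjusted p = 0.0139) in depletion against control and by 0.27 (adjusted p = 0.000148) in repopulation against control. Rps27l, a copy of Rps27 that p53 is known to induce, stood at 3.89, 3.74, 4.49, 4.08 and 4.92 CPM in control, 2.46, 4.13, 4.60, 2.94 and 2.67 in depletion and 2.49, 2.37, 2.74, 3.62 and 3.03 in repopulation, and fell in repopulation against control with -0.56 (SE 0.16, adjusted p = 0.00796). Reads shared by near-identical copies could be split or dropped in counting, so the values of Rpl22, Rpl22l1 and the pseudogene rows are uncertain to that extent.

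Of the 81 members, 3 did not pass the test in repopulation against control: Rpl3l, Rps4l and Rps15a. Rps4l, annotated as a transcribed pseudogene of Rps4x, stood at 13.5, 10.6, 14.4, 12.2 and 11.2 CPM in control, 10.5, 13.5, 9.58, 12.2 and 14.2 in depletion and 10.2, 13.2, 12.5, 9.98 and 12.3 in repopulation, with -0.10 (SE 0.11, adjusted p = 0.563). The groups of Rps4l overlapped throughout. Rps15a (chr7:118104372-118116188, minus strand), a core small subunit gene named after its values were seen, stood at 86.1, 78.0, 83.1, 76.1 and 83.6 CPM in control, 80.1, 86.4, 86.4, 83.3 and 79.9 in depletion and 78.6, 77.8, 76.3, 75.2 and 73.6 in repopulation. Its log2 fold change was 0.032 (SE 0.039, adjusted p = 0.649) in depletion against control and -0.094 (SE 0.039, adjusted p = 0.0771) in repopulation against control. Rps15a fell in repopulation against depletion, with -0.13 (SE 0.039, adjusted p = 0.0299). The annotation gives Rps15a a principal transcript of 640 nt and joined exons of 6270 nt, and which of its transcripts the reads came from was not tested.

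The members' transcripts are short, and length moved with the groups across the whole table. The 80 tested protein-coding members had a median transcript length of 705 nt (271 to 3706), against 2842 nt for the 14871 protein-coding genes tested, and a median GC content of 51.8% against 50.8%. Over tested genes, log2 of CPM over the control mean rose with each doubling of transcript length by 0.058 to 0.065 in the repopulation libraries. The slope was 0.044, 0.0082, 0.033, 0.028 and 0.053 in depletion libraries 1 to 5 and -0.011 to 0.0070 in the controls, so that depletion library 2 stood nearest to the controls in slope as in member level. Within the controls too, libraries 1 and 3 had the 2 highest member sums and the 2 lowest slopes. Other libraries did not keep this order. Depletion library 1 had a higher slope than depletion libraries 3 and 4 and also a higher sum (5254 against 5134 and 5147 CPM). Repopulation library 2 had the lowest slope and the highest sum of its group. Repopulation library 3 had both a lower slope (0.0584 against 0.0612) and a lower sum (4483 against 4699 CPM) than repopulation library 5. The 971 other protein-coding genes with transcripts up to 1000 nt had median deviations of -0.22 to -0.18 in the repopulation libraries, where the members had -0.46 to -0.32. Depletion library 2 gave 0.014 for those short genes and 0.033 for the members, against -0.14 to -0.084 and -0.27 to -0.20 in the other depletion libraries. What makes length move with the groups was not tested.

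Set against genes of like length, the members were lower in each length range that held more than 4 of them. In repopulation against control, the 204 other protein-coding genes up to 600 nt had a median log2 fold change of -0.23 and 42.6% of them fell, while the 30 members of that range had a median of -0.42 and 30 fell. From 600 to 800 nt the medians were -0.21 for 343 others and -0.39 for 18 members, from 800 to 1000 nt -0.17 and -0.39 (13 members), and from 1000 to 1500 nt -0.14 and -0.34 (13 members). Other genes above 5000 nt had a median of 0.13. In depletion against control the ranges up to 600 nt gave -0.11 for others and -0.20 for members, and in repopulation against depletion -0.13 and -0.23.

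**Figure D4:**
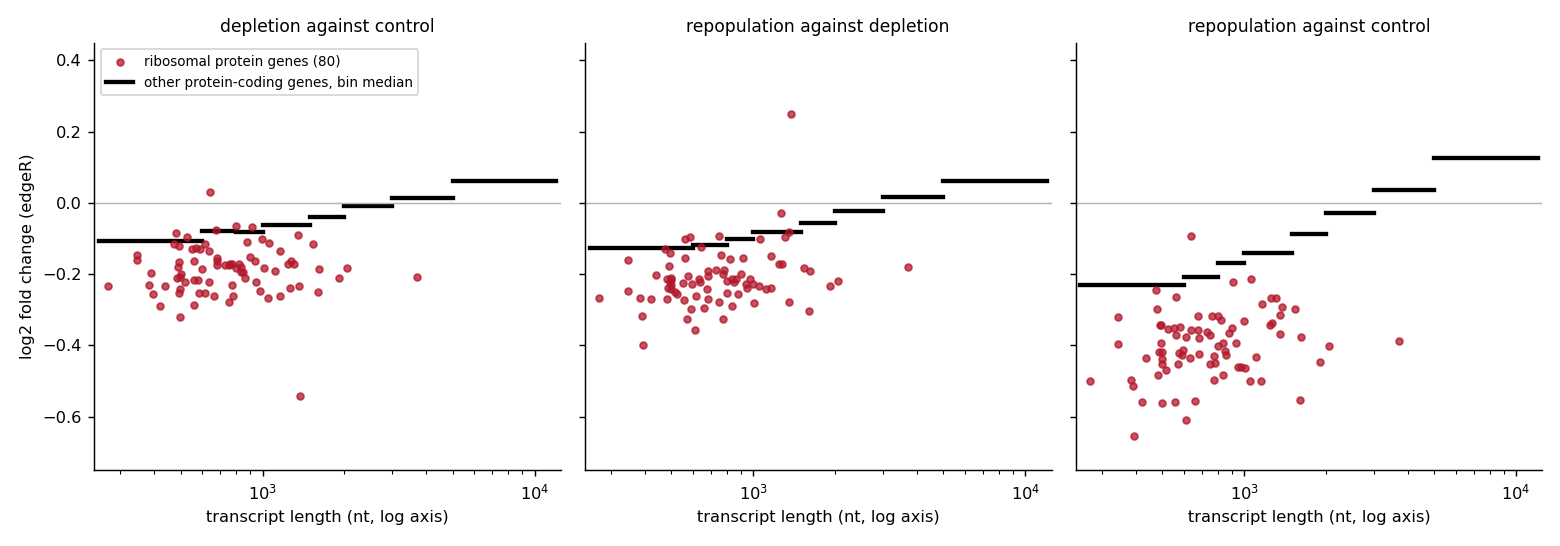
Each red point is 1 of the 80 tested protein-coding ribosomal protein genes, at its transcript length (log axis) and its log2 fold change, in the 3 comparisons; black bars are the medians of other protein-coding genes within length ranges. The bars rise from left to right in each panel, and most red points lie below the bar of their own range.

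A fit that took each library's trends with transcript length and GC content out gave medians closer to 0 in all 3 comparisons. Single members could move otherwise: Rps4l changed sign in both comparisons with control, Rpl15 came to lie at 0.00014 in depletion against control, and Rps20, named after its values were seen, had -0.45 (adjusted p = 3.25e-05) in repopulation against control, a larger fall than as counted (-0.39). The fit gave Rps20 a transcript length of 3706 nt, the longest of the tested protein-coding members. Whether cortex uses a transcript of that length was not tested. In repopulation against control, 76 of 81 members fell with a median of -0.29, where 12.2% of all genes tested fell in that fit. In depletion against control 25 members fell (median -0.14, 6.24% of all genes) and in repopulation against depletion 29 (median -0.16, 6.73% of all genes). Rps21 and Rpl39 had the largest falls in repopulation against control with the trends taken out, -0.56 (adjusted p = 0.000137) and -0.52 (adjusted p = 0.00376), and Rps4x had -0.37 (adjusted p = 6.87e-06). Among the members themselves, length followed the change only loosely: across 80 members the Spearman correlation of transcript length with the log2 fold change was 0.24 in repopulation against control and 0.054 in depletion against control, a description across genes that share the same libraries.

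Core proteins that the name rule misses were lower in the same comparisons. Rps3a1, Fau (a fusion with a ubiquitin-like protein), Rack1 and Rpl36al all fell in repopulation against control, with a median of -0.36, and 3 of the 4 fell in depletion against control. Rps3a1 went from 113 ± 6.06 CPM in control to 103 ± 8.05 in depletion and 85.6 ± 1.49 in repopulation (SD, n = 5), with -0.39 (SE 0.046, adjusted p = 1.56e-06) in the last against control. Fau fell by 0.44 (adjusted p = 9.23e-06) and Rack1, a scaffold for signalling proteins on the small subunit, by 0.31 (adjusted p = 1.8e-05). The 10 ribosomal protein pseudogene rows that could be tested gave 0 calls in edgeR and in DESeq2 in both comparisons with control. At an unadjusted p under 0.05 in edgeR, 2 were higher in depletion and 2 lower in repopulation. Against depletion, 2 fell in repopulation. The 288 such rows held 5856 counts in all, against 2347840 for the members.

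Among the factors that work with the ribosome, genes were called in both directions, and the difference of these lists from the members was not tested. Of 14 elongation and termination factors, 8 fell (57.1%) and 1 rose in repopulation against control (median -0.11). Of all genes tested, 15.2% fell and 13.9% rose in that comparison. Eif5a, which helps the ribosome past proline runs, fell from 181 ± 7.13 CPM in control to 139 ± 1.37 in repopulation, with -0.38 (SE 0.043, adjusted p = 1.49e-06), and Eef1g, a subunit of the exchange factor of Eef1a, fell by 0.30 (adjusted p = 5.69e-06). Gspt1, the termination factor eRF3, rose in depletion against control with 0.16 (SE 0.037, adjusted p = 0.00361). Of 43 initiation factors 23 fell (53.5%) and 6 rose in repopulation against control (median -0.12). In depletion against control 5 fell (11.6%) and 4 rose (median -0.023), near the shares of all genes, 8.35% lower and 8.19% higher. In repopulation against control Eif4h, a helper of the helicase Eif4a, fell by 0.28 (adjusted p = 1.2e-06). Eif1, which guards the choice of start codon, fell by 0.25 (adjusted p = 3.7e-06) in the same comparison. The large scaffold subunit Eif3a was among the genes called in depletion against control.

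A list of other classical TOP transcripts, which also holds regulators of TOP mRNAs such as Larp1, did not follow the members gene for gene. It shares genes with the lists of elongation and initiation factors, among them Eef1g, Eef1d and Pabpc1, so the counts of these lists are not separate. Of the 22 genes of the TOP list, 13 fell (59.1%) and 3 rose in repopulation against control (median -0.13), where 15.2% of all genes tested fell. In depletion against control 3 fell (13.6%, against 8.35% of all genes) and 1 rose (median -0.059). Repopulation against depletion had 11 lower (50%, against 8.98% of all genes) and 1 higher (median -0.12). Tpt1, the translationally controlled tumour protein, fell from 179 ± 16.3 CPM in control to 149 ± 13.1 in depletion and 129 ± 6.92 in repopulation, by 0.47 (adjusted p = 5.32e-05) in all. Naca, a chaperone at the tunnel exit, fell by 0.31 (adjusted p = 5.61e-06). Pabpc1, the poly(A)-binding protein and a classical TOP transcript, went the other way: 176 ± 1.95 CPM in control, 167 ± 3.30 in depletion and 189 ± 3.80 in repopulation, where it rose against depletion by 0.18 (adjusted p = 7.51e-05) and against control by 0.11 (adjusted p = 0.00677).

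In the mTORC1 pathway, 6 of 29 genes fell (20.7%) and 4 rose in repopulation against control (median -0.023), shares near those of all genes tested (15.2% fell and 13.9% rose). Mtor itself, the kinase, rose from 148 ± 5.79 CPM in control to 163 ± 5.14 in depletion and 178 ± 3.10 in repopulation, with 0.26 (SE 0.033, adjusted p = 4.07e-06). Rheb, the small GTPase that activates it, fell with -0.28 (SE 0.040, adjusted p = 1.54e-05). Mtor is a transcript of 8564 nt and Rheb of 1784 nt. Of 85 genes of ribosome assembly, 15 fell (17.6%) and 13 rose in repopulation against control (median -0.019), also near the shares of all genes. The genes named from both lists are therefore single genes and do not stand for their lists. Mdn1 and Utp20, which encode a remodelling ATPase and a scaffold of assembly, rose by 0.31 (adjusted p = 2.5e-05) and 0.30 (adjusted p = 2.43e-05), with transcripts of 17959 and 8821 nt. Nop16, a small nucleolar protein, fell by 0.41 (adjusted p = 3.39e-05). With length and GC trends taken out, 16 assembly genes fell and 10 rose.

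Families outside the cytosolic ribosome with transcripts shorter than the median tested gene had many lower genes in repopulation against control. Median transcript lengths were 1251.5 nt for mitochondrial ribosomal proteins, 704 nt for the respiratory chain and 1526.5 nt for the proteasome. The 81 members had 729 nt and all genes tested 2677 nt, so only the respiratory chain was as short as the members. In that comparison, 51 of 78 mitochondrial ribosomal protein genes fell (65.4%, median -0.22), where 15.2% of all genes tested fell. Also lower were 65 of 75 nuclear genes of the respiratory chain and ATP synthase (86.7%, median -0.31) and 27 of 34 proteasome subunits (79.4%, median -0.17). Mrps23 fell by 0.43 (adjusted p = 4.15e-06), the cytochrome oxidase subunit Cox7a2l by 0.42 (adjusted p = 1.29e-06) and the proteasome ATPase Psmc5 by 0.30 (adjusted p = 2.46e-06). In depletion against control 8 of 78 (10.3%), 8 of 75 (10.7%) and 2 of 34 (5.88%) fell, close to the 8.35% of all genes tested, with medians of -0.049, -0.099 and -0.034, and Ndufs1 rose by 0.26 (adjusted p = 3.58e-05). With trends taken out, the medians in repopulation against control were -0.16, -0.21 and -0.13, where that of the members was -0.29. The differences between these lists were not tested.

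**Figure D5:**
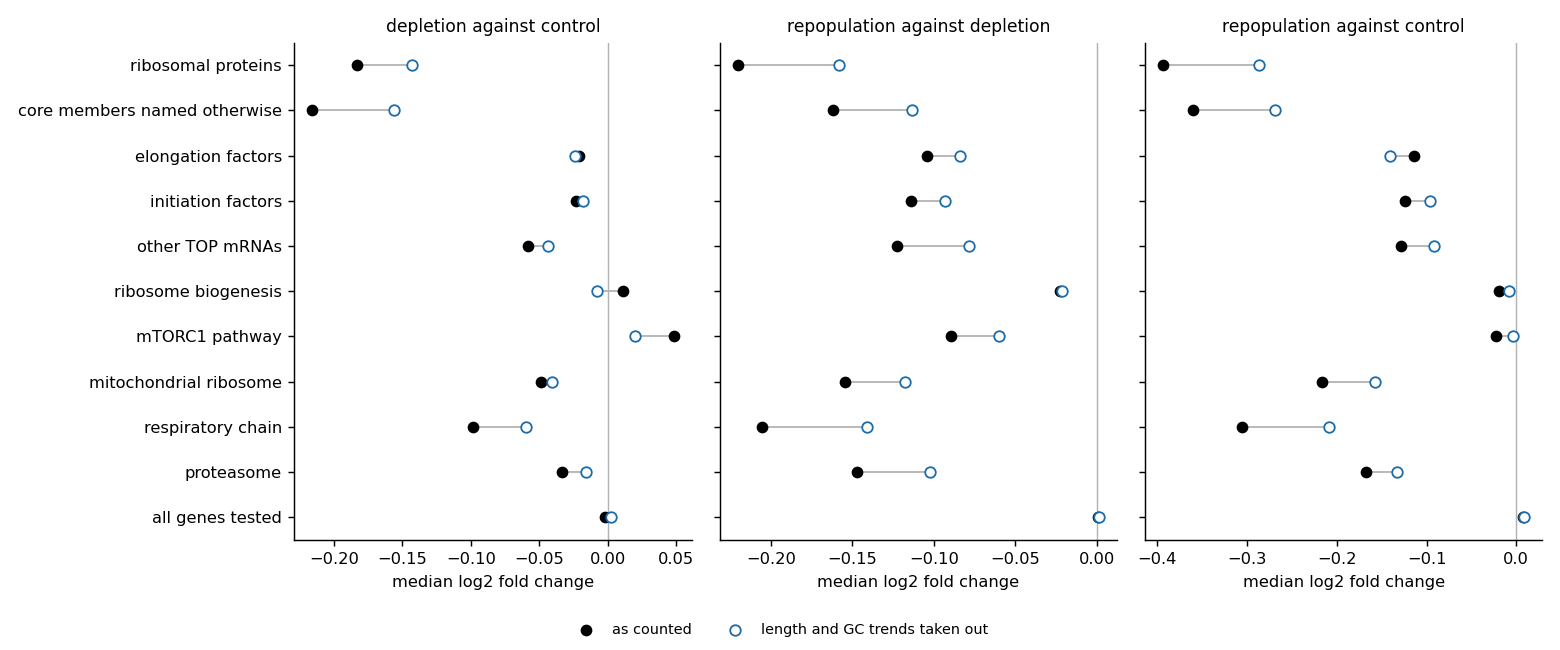
Median log2 fold change of each gene list in the 3 comparisons, as counted (black) and with each library's length and GC trends taken out (open blue). The ribosomal proteins and the core members with other names have the lowest medians in repopulation against control, -0.39 and -0.36 as counted, the respiratory chain follows, and ribosome assembly and the mTORC1 pathway lie near 0.

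Per length, the 80 protein-coding members spanned a wide range of levels in control cortex, with a median of 98.8 RPKM and quartiles of 60.8 and 125. In the repopulation group the median was 69.6 RPKM and the quartiles 47.6 and 98.1. The low end held Rps20 at 14.2 ± 1.07 RPKM, Rps27l at 8.47 ± 0.962 and Rpl3l at 0.344 ± 0.119 (SD, n = 5). Rps4l, annotated as a pseudogene and so not among the 80, stood at 13.1 ± 1.65 RPKM (SD, n = 5). The level of Rps20 per length rests on the 3706 nt given to its transcript. Which transcripts of a gene are used sets its length, so neighbours in this order are not compared.

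Cell type markers give the state of the tissue around these values. All 14 microglia markers fell in depletion against control, from a summed 339 to 375 CPM in the control libraries to 14.8 to 19.0 CPM, and stood at 365 to 414 CPM in the repopulation libraries, in which the members were lowest. Markers of oligodendrocyte precursors followed the same course, with all 6 lower in depletion and 5 of 6 higher in repopulation against depletion. The sums of the 8 excitatory neuron markers overlapped between groups, at 5208 to 5677 CPM in control, 4998 to 5365 in depletion and 4740 to 5387 in repopulation, and 2 of the 8 fell in repopulation against control. Myelin markers stood at 4948 to 5224, 5256 to 6401 and 4484 to 5347 CPM, with 5 of 7 higher in depletion against control and all 7 lower in repopulation against depletion (median -0.27), a comparison in which the members fell too. Endothelial markers summed to 182 to 202 CPM in control, 160 to 174 in depletion and 198 to 206 in repopulation, with 4 of 6 lower in depletion against control and 4 of 6 higher in repopulation against depletion. Choroid plexus markers summed to 9.44 to 25.5 CPM in control, 14.3 to 218 in depletion, highest in library 2, and 8.93 to 563 in repopulation, highest in library 4. Striatum markers summed to 740 to 1176 CPM in control, 842 to 1143 in depletion and 738 to 1314 in repopulation. Hippocampus markers summed to 127 to 205, 123 to 216 and 145 to 187 CPM. In depletion both sums were highest in library 2, and in repopulation both were highest in library 5. The part of these cell types and brain regions in the members' values was not tested.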

How the data were processed

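Counts of reads per gene were analysed for 15 cortex libraries, 1 per mouse. The table was deposited as raw whole-number counts for 53278 gene symbols, and columns were matched to groups and mouse numbers by the labels. The submitters' processing notes name the mm10 genome and the tools STAR, DESeq2, DESeq, FastQC and MultiQC, with no roles. How reads were assigned to genes, with which annotation and whether by strand, is not given in the sources used here. Library totals were 23413551 to 48617851 counts. Libraries of a group differed by more than sampling noise (chi-square of 2.53 to 9.95 per degree of freedom over 30 pairs).

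Genes passing filterByExpr were scaled with TMM factors and tested with edgeR 4.0.16 (R 4.3.3, robust quasi-likelihood F test, all 15 libraries, no covariate), with Benjamini-Hochberg adjustment over all genes and a threshold of 0.05. The SE of a log2 fold change is its size over the root of F. CPM uses TMM-scaled library sizes, and RPKM divides it by the length of the shortest principal transcript in GENCODE M21 (GRCm38), joined by symbol. Alternative fits took out smooth trends of each library with transcript length and GC content (mgcv 1.9.3, deviations limited to 1 log2 unit either way, 97.8% of tested genes with both values), used DESeq2 1.42.0 or other scalings and filters, blocked on mouse number, or left out single libraries. The script was tested on simulated counts.

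Members and gene lists were chosen with earlier results of these data known. Values were named for set members (the stalk, Rpsa, Rps6, Rps3, Rps19, Rps27a, Rpl5, Rpl11, Rpl10, Rpl22, Rpl3, Rpl38, Rpl41 and the paralogs), for the members with the smallest adjusted p or the largest fold change in each comparison, for the highest and lowest per length, and for up to 3 called genes of each other list per comparison. Not every gene so chosen is described.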

Additional observations from a re-analysis of the deposited data

Results flagged for a closer look

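Among 114 checks of single libraries within groups of 5, in levels of named members and in sums, 6 picked out a library. The rule was its gap to the nearest other, relative to the group's range (limit 0.71). Chance picks about 1 in 20, so the number flagged was about what chance gives. Depletion library 2 accounted for 4 of the 6. These 4 are not separate, because the members' sum and their share of counts are nearly the same quantity and include Rplp1 and Rpl22l1. Its summed member level was 6060 CPM against 4925 to 5254 in the other depletion libraries, and the members held 0.608% of its counts against 0.489 to 0.514%. Rplp1 stood at 163 CPM in it against 115 to 124, and Rpl22l1 at 24.9 CPM against 18.9 to 19.9. The same library had the smallest length slope of its group, 0.0082, and a microglia marker sum of 19.0 CPM. It also had the highest choroid plexus sum of its group, 218 CPM, and the highest hippocampus sum, 216 CPM. Its striatum sum, 1143 CPM, was the highest of the group too, with 1140 CPM in depletion library 5. The part of these in its member level was not tested. The others were Rpl5 in depletion library 5, at 58.7 CPM against 67.7 to 71.2, and Rpl27a in repopulation library 1, at 45.7 CPM against 49.6 to 50.2.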

How the results depend on the processing

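All 3 comparisons kept the members' median below 0 under every alternative that gives a median, which the test against a minimum change does not, and 78 or 79 members fell in repopulation against control in each fit that left out 1 library. The number of members that fell in depletion against control, 39, became 25 with length and GC trends taken out, 24 with trends drawn from non-members, 22 with joined exon lengths, 20 with only the groups compared, and 8 against a minimum change of 0.1 on the log2 scale. In repopulation against depletion, 56 became 29, 30 (trends of non-members) and 13 (minimum change). The median in repopulation against control, -0.39, moved to -0.29 with trends taken out, -0.30 with trends of non-members and -0.31 with joined exons. The trends from non-members or joined exons were added after seeing the data. The members' share of counts in repopulation was 0.477% without mitochondrial and ribosomal RNA rows.

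Without 1 library at a time, the count in depletion against control ran from 20 to 69 (median -0.25 to -0.16), in repopulation against depletion from 35 to 63 (median -0.24 to -0.16), and in repopulation against control from 78 to 79 (median -0.43 to -0.36).

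Mouse numbers are not said to pair animals. Deviations of same-numbered libraries correlated at -0.13 to 0.10, with the own number best in 2 of 30 cases. Over the members alone the correlations ran from -0.78 (number 5, depletion and repopulation) to 0.69 (number 4, control and depletion). Such correlations cannot show whether the mice were paired, and the main fit assumed no pairing. With the replicate block, 43, 55 and 78 members fell in the 3 comparisons. Trends together with the block gave 28 in repopulation against depletion and a median of -0.29 in repopulation against control.

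Values whose sign changed were those of Rps4l, Rpl3l, Rpl15 and Mdm4. Rps4l in depletion against control was 0.067 with trends taken out, 0.060 with the block as well, 0.065 with trends of non-members, 0.054 with joined exons, and 0.0071 and 0.022 without control library 3 or depletion library 3 (range without 1 library -0.12 to 0.022). In repopulation against control it was 0.060, 0.052, 0.055 and 0.034 under the same 4 fits. In repopulation against depletion it was 0.016 without depletion library 5 and 0.0034 without repopulation library 4 (range -0.12 to 0.016). In the same comparison Rpl3l, at 0.25, gave -0.029 and -0.11 without depletion library 5 or repopulation library 5 (range -0.11 to 0.74). Rpl15 gave 0.00014 and 0.0019 in depletion against control with trends taken out, without and with the block. Mdm4 (0.10, adjusted p = 0.0333 by edgeR, in repopulation against control) gave -0.058 with joined exons. The causes were not tested. Rpl3l had 175 counts over all libraries.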

Other observations

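Genes around ribosome supply outside the lists above had calls in both directions. Of 15 genes of RNA polymerase I and its factors, which make ribosomal RNA, 3 fell (20%) and 2 rose in repopulation against control (median -0.066), near the shares of all genes tested (15.2% fell and 13.9% rose). Polr1a, the largest subunit, rose from 44.5 ± 2.02 CPM in control to 53.6 ± 0.941 in repopulation (SD, n = 5), with 0.27 (SE 0.043, adjusted p = 4.29e-05), while the initiation factor Rrn3 fell with -0.17 (SE 0.036, adjusted p = 0.0008). Of 15 genes of the Mdm2 and p53 checkpoint and the Myc family, 4 fell in depletion against control (26.7%, against 8.35% of all genes tested). In repopulation against control 2 fell (13.3%, against 15.2% of all genes) and 1 rose. Cdkn1a, a p53 target that stops the cell cycle, stood at 21.3 ± 2.46 CPM in control, 16.3 ± 1.32 in depletion and 16.0 ± 1.53 in repopulation, with -0.39 (SE 0.077, adjusted p = 0.00094) and -0.41 (SE 0.077, adjusted p = 0.000258) against control. Myc stood at 3.99 ± 0.264, 3.25 ± 0.413 and 4.12 ± 0.420 CPM, and rose in repopulation against depletion with 0.34 (SE 0.11, adjusted p = 0.04).

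Mitochondrially encoded mRNAs, which use another ribosome, held 3.45 to 3.77% of counts in control, 3.37 to 3.88% in depletion and 3.36 to 3.52% in repopulation libraries, ranges that overlap between all groups. Rows of ribosomal RNA held 0.0040 to 0.0054% in control, 0.0029 to 0.0049% in depletion and 0.0034 to 0.0046% in repopulation.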
